A study of Mus musculus with 2 samples.

Results

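The 9 keratin genes Krt5, Krt7, Krt8, Krt14, Krt15, Krt17, Krt18, Krt19 and Krt23 and the transcription factor gene Trp63 were followed in airway epithelium from fetal mouse lungs of 2 embryonic ages, E18.5 and E14.5 (E counts days of gestation). They were chosen by name, as the probes whose gene name on the array is one of these symbols or a former symbol of it, and they are 10 of the 19748 genes that the array's probes name. The array carried 14 probes of 60 bases for them, of which 0 stood under a former symbol. Both groups were wild-type male CD-1 fetuses, an outbred stock, with no treatment and no other allele. The E18.5 sample was the epithelium of the airways inside the lobes of 1 lung, cut out of frozen sections with a laser, and its amplified RNA carried the red dye Cy5. The E14.5 sample was the same tissue of 1 lung and carried the green dye Cy3. Both were hybridised together on 1 array without a dye swap, so age, dye and animal cannot be told apart, and since each age has 1 sample there is neither replicate nor test.

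Keratins are the intermediate filament proteins of epithelial cells. Each filament is built from pairs of an acidic type I and a neutral to basic type II keratin. Krt8 (type II) and Krt18 (type I) are the pair of simple, single-layered epithelia, where Krt7 (type II) and Krt19 (type I) are often made as well. Krt5 (type II) and Krt14 (type I) are the pair of basal cells, the progenitors that sit on the basement membrane of stratified and pseudostratified epithelia, and Krt15 and Krt17 are further type I keratins known from basal layers. Trp63 belongs to the family of the tumour suppressor p53 and is needed for basal cells to form. In the adult mouse, basal cells line the trachea and main bronchi and are scarce in the smaller airways sampled here.

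The probes decide which end of a transcript is read, so the stretches on which the results turn are printed here as deposited, 5′ to 3′. They comprise the probes of the keratins with large differences, of the keratins with probes that disagreed, and of Krt14 and Trp63, which were dim or lower. Capitals mark the TGA stop codon in Krt18 and in the brighter Krt8 probe, and the letters AATAAA, the usual polyadenylation signal, in a Krt7 probe. AATAAA, searched on the probe's own strand alone, occurs in 4.78% of all probes of the array and in 2 of the 14 probes described here.
Krt15, mm8 chr11:99948116-99948175, minus strand: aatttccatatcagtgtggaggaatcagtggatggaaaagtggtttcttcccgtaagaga
Krt18, mm8 chr15:101859944-101860003, plus strand: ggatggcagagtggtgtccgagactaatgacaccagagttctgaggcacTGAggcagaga
Krt8, first probe, mm8 chr15:101824949-101825008, minus strand: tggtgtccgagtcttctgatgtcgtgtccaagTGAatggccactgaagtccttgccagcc
Krt8, second probe, mm8 chr15:101824817-101824876, minus strand, bases 1 to 30: ccgaggatcagccctaatcctctggccaac
Krt19, mm8 chr11:99957168-99957227, minus strand: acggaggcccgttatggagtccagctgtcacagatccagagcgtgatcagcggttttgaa
Krt7, first probe, mm8 chr15:101255775-101255834, plus strand, bases 20 to 49: gctgttggctttAATAAAgggcctctctga
Krt7, second probe, mm8 chr15:101251321-101251380, plus strand: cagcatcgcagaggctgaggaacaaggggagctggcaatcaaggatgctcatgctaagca
Krt14, mm8 chr11:100019459-100020064, minus strand: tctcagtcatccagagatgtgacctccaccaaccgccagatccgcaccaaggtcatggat
Trp63, first probe, mm8 chr16:25807275-25807334, plus strand, bases 1 to 30: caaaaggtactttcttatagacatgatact
Trp63, second probe, mm8 chr16:25780651-25781428, plus strand: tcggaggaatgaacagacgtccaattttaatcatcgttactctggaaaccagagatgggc
The Krt14 probe spans 606 bases of the genome and the second Trp63 probe 778 bases, so both cross an intron. The remaining probes lie at chr15:101535117-101535176 for Krt5, chr11:100072360-100072419 for Krt17, chr11:99294169-99294228 for Krt23 and chr16:25782981-25783040 for the last of the 3 Trp63 probes. Genome positions are those of the array's own annotation, and whether a probe could also bind another keratin's transcript was not tested.

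Values are normalized intensities per age, which include an added constant of 50, and log2 ratios of E18.5 over E14.5. A gene was called higher or lower at E18.5 when the ages differed at least 2-fold, which is a rule of size and not a test. Intensities of different probes are not compared with each other. Of the 41170 probes of the array, 78.7% stood well above background at E18.5 and 75.2% at E14.5, and 0 were saturated. Both ages were well above background for 12 of the 14 probes here, with at least 1 such probe for each of the 10 genes. The repeat spots on the array give one technical spread, a median SD of 0.05 in log2 ratio over 245 probes with at least 3 spots. Different probes of the same gene give a wider one, a median SD of 0.33 over 6890 genes, with 90% of genes below 0.86.

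**Figure D1:**
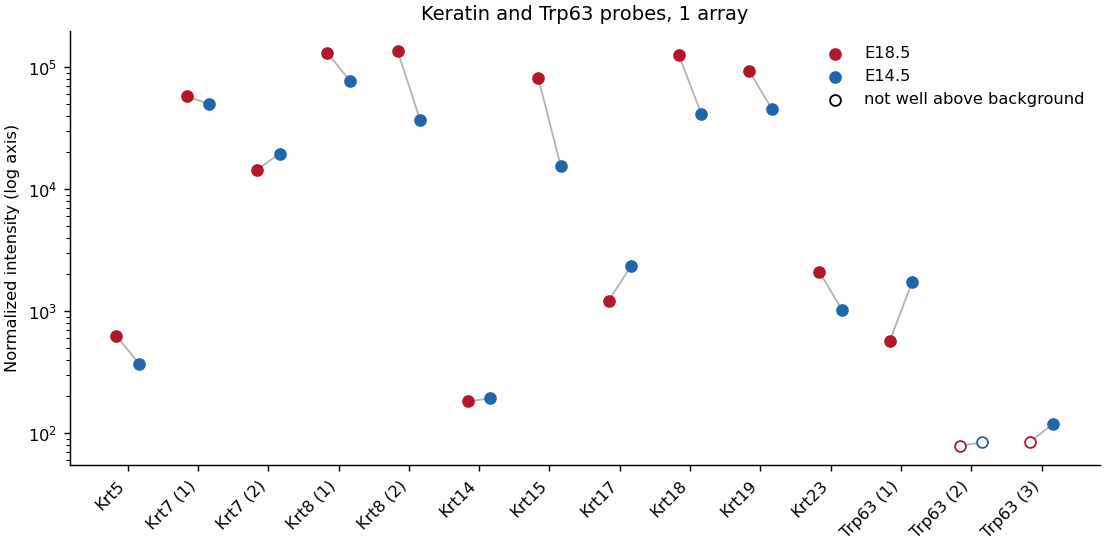
Normalized intensity (log axis) of each of the 14 probes at E18.5 (red, left) and E14.5 (blue, right), 1 sample per age. Numbers in parentheses number the probes of a gene in the order of the text, and open circles were not well above background. The Krt15, Krt18 and second Krt8 probes drop most steeply towards E14.5, while Trp63 and Krt17 are higher at E14.5.

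By the probe used for each gene, 4 of the 10 genes were called higher at E18.5 (Krt15, Krt18, Krt23 and Krt19), 1 was called lower (Trp63) and 5 lay within 2-fold. Over the 17244 genes with a value, 17.3% were called higher and 10.1% lower. The share called lower among the 10 genes is that of the array, while 4 of 10 called higher is above it, in so few genes. Their median log2 ratio was 0.76, and that of all genes was 0.06. The calls depend on the ratio taken. With the ratio of the scanner software, which normalizes the dyes in its own way, 2 genes were higher (Krt15 and Krt18) and 2 lower (Krt17 and Trp63), against 18.9% and 15.6% of all genes, so that 2 of 4 calls in place of 4 of 5 were on the higher side. With that ratio the median of all genes was lower by 0.11 (-0.108), at -0.05.

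Among the keratins of simple epithelia, Krt18 and Krt19 passed the 2-fold limit on the higher side and Krt8 and Krt7 did not, by the probes used. Krt18 had an intensity of 125006 at E18.5 and 41452 at E14.5, a log2 ratio of 1.59 or 3.02-fold. Krt19 had 93096 at E18.5 and 45619 at E14.5, a log2 ratio of 1.03 that lies at the 2-fold limit and was 0.98 by the scanner software. Across the 9 ways of processing, Krt18 stayed above 2-fold, between 1.52 and 2.02. All of these ways reuse the same spots, so they are not independent, and some repeat a value by construction. The authors' value table gave the scanner software's ratio again for these genes. The median over probes cannot change a gene with 1 probe, such as Krt18.

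Krt8, the partner of Krt18 in these filaments, gave different ratios with its 2 probes. The first, over the stop codon, had 130528 at E18.5 and 77394 at E14.5, a log2 ratio of 0.75 (1.69-fold). The second, which starts 132 bases further towards the end of the gene, had 135357 at E18.5 and 36834 at E14.5, a log2 ratio of 1.88 (3.68-fold). Both probes were higher at E18.5, and their ratios differed by 1.12, an SD of 0.80 (0.795) that is wider than in 87.6% of the genes with 2 or more such probes. The second Krt8 probe gave a ratio near that of Krt18 and the first a ratio 0.84 below it, so whether the 2 partners kept step depends on the probe.

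Krt7 had 57601 at E18.5 and 49658 at E14.5 by the probe that carries AATAAA, a log2 ratio of 0.21. Its second probe, which lies 4454 bases upstream, had 14378 at E18.5 and 19494 at E14.5, a log2 ratio of -0.44. The 2 probes thus point in opposite directions, both within 2-fold, with an SD of 0.46 that is wider than in 65.7% of genes, and no direction is given for Krt7. Krt23, a type I keratin of less settled function, had 2102 at E18.5 and 1027 at E14.5, a log2 ratio of 1.03, and 0.88 by the scanner software, which is under 2-fold.

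The keratins of basal cells did not move as a group. Krt15 had the highest ratio of the 10 genes, while the classical basal pair Krt5 and Krt14 lay within 2-fold and Krt17 was close to 2-fold lower. Krt15 had an intensity of 81449 at E18.5 and 15430 at E14.5, a log2 ratio of 2.40 (5.28-fold), and it was past 2-fold in each of the 9 ways of processing, at 2.35 in the lowest. Krt5 had 626 at E18.5 and 371 at E14.5, a log2 ratio of 0.76 (1.69-fold), and 0.64 to 0.83 across them. Krt14, the partner of Krt5, had 182 at E18.5 and 193 at E14.5, a log2 ratio of -0.09.

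The Krt14 ratio ran between -0.29 and 0.01 across the ways of processing, so no direction is given for it. Krt17, known from basal cells and from wounded epithelium, had 1212 at E18.5 and 2333 at E14.5, a log2 ratio of -0.94 (1.92-fold lower). By the scanner software it was -1.21, past the 2-fold limit, and it was below 0 in each of the 9 ways of processing. In log2 ratio, Krt15 stood 1.64 above Krt5, 2.49 above Krt14 and 4.01 above Trp63. In a bulk sample, fewer cells of a type and less RNA per cell cannot be told apart.

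Trp63 was lower at E18.5. The first probe had 568 at E18.5 and 1730 at E14.5, a log2 ratio of -1.61 or 3.05-fold lower, and it stood well above background at both ages. By that probe the ratio ran between -2.001 (scanner software) and -1.58 (median centring). With the median over probes the gene had -1.04, a value that takes in the bound of the last probe. The 2-fold call thus held in each of the 9 ways of processing, there by a small margin. The last probe had 85 at E18.5, where it was not well above background, and 119 at E14.5, where it was, which makes the gene at least 1.40-fold lower by that probe. The second probe had 79 at E18.5 and 84 at E14.5 and was not well above background at either age. Thus 2 probes were lower at E18.5, while the 2-fold size rests on 1 of them, which lies 26624 bases from the second probe in the genome. The array does not separate the isoforms that Trp63 makes from alternative promoters and by alternative splicing.

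**Figure D2:**
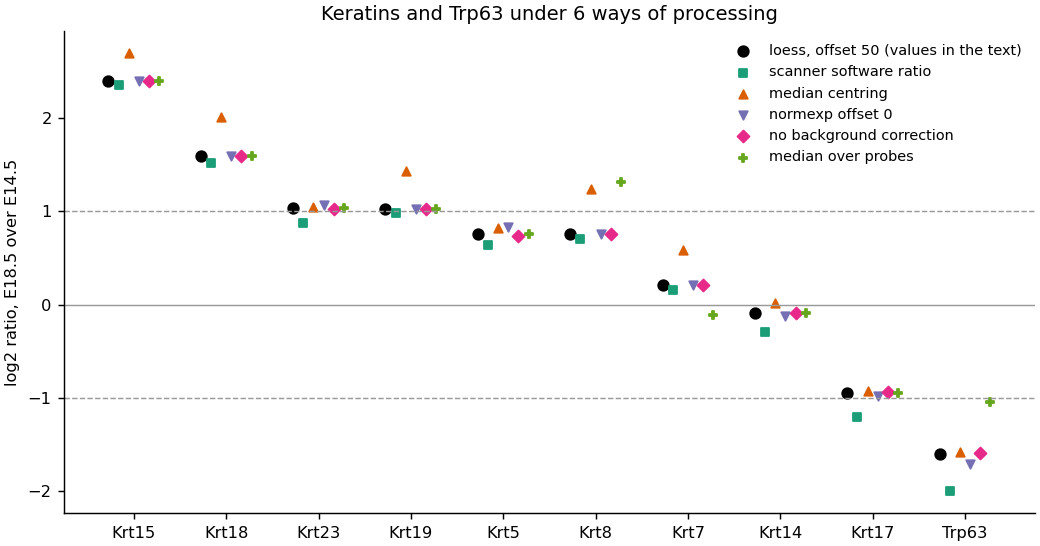
Log2 ratio of E18.5 over E14.5 (vertical axis) for the 10 genes under 6 ways of processing, 1 array; the dashed lines mark a 2-fold difference. Krt15 and Krt18 stay above the upper line and Trp63 below the lower one under the ways shown, while Krt19, Krt23, Krt8 and Krt17 cross a line and Krt7 and Krt14 cross 0.

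The normalization moved bright and dim probes differently. Loess takes out the trend of the log2 ratio with brightness. Plain median centring gave log2 ratios higher by 0.17 to 0.49 for the 7 probes with an E14.5 intensity above 10000, and by 0.01 to 0.10 for the 5 dimmer ones. The ratio of the scanner software moved dim genes more, such as Trp63 (-2.001, against -1.61 by loess), than bright ones such as Krt15 (2.35, against 2.40). With median centring, 5 of the 10 genes were called higher, with Krt8 added at 1.24, beside 19.2% of all genes. The count of genes called lower stayed at 1, beside 8.81%. With the median over a gene's probes, 5 were higher and 1 lower too, beside 15.2% and 8.34% of all genes.

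The array named 45 keratin genes, 24 on chromosome 11, where the type I genes lie, and 21 on chromosome 15, which holds the type II genes and Krt18. Of the 36 others, 27 were measured at both ages, 3 were well above background at E18.5 alone (Krt25, Krt26 and Krt71, with bounds of 1.40-, 1.09- and 1.05-fold) and 6 were so at neither. Of the 30 with a value, 4 were called higher, 3 lower and 23 neither, with a median log2 ratio of 0.17, close to the shares and median of all genes. Krt13, a type I keratin of layers above the basal layer in internal stratified epithelia, had 5971 at E18.5 and 1734 at E14.5, a log2 ratio of 1.78, and its second probe gave 1.83. Krt20, Krt31 and Krt80 followed with 1.28, 1.26 and 1.08, and Krt35 had 0.85. By the scanner software Krt31 had 1.86 and Krt35 had 1.87, which takes Krt35 past 2-fold.

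On the lower side stood Krt10, a keratin of epidermal layers above the basal layer, with 1222 at E18.5 and 3022 at E14.5, a log2 ratio of -1.31. Its second probe gave -0.27, so that call also depends on the probe. Krt4, which pairs with Krt13 in such epithelia, had 135 at E18.5 and 277 at E14.5, a log2 ratio of -1.04 that runs against its partner's. Krt16, a keratin of wounded epidermis, had 585 at E18.5 and 1174 at E14.5, a log2 ratio of -1.004, at the limit. Krt28 and Krt75, keratins of the hair follicle, had log2 ratios of -0.40 and -0.26. Krt28 was dim, with 90 at E18.5 and 119 at E14.5, and had -1.12 by the scanner software, past 2-fold.

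Along chromosome 11, keratins with like signs lay side by side. This stretch was singled out after its values were seen and carries no test. From Krt20 to Krt19, over 712.7 kb, 11 of the 12 keratins were measured at both ages, and all 11 had log2 ratios above 0, from 0.21 to 2.40, of which 6 were at least 2-fold. Over all 17244 genes with a value, 9375 were above 0 and 17.3% were called higher. The stretch was cut where the signs change: before it lie Krt28 and Krt10, with -0.40 and -1.31. Signs were mixed along chromosome 15. The next 4 keratins, Krt9, Krt14, Krt16 and Krt17, over 69.3 kb, had log2 ratios from -1.004 to -0.08. The scanner software gave the same signs, 11 of 11 above 0 and 4 of 4 below. By it Krt19 (0.98) and Krt23 (0.88) fell under 2-fold and Krt35 (1.87) passed it. With median centring Krt14 was at 0.01, and Krt33b, counted among the 11, had -0.15 by its other probe. Krt13, Krt15 and Krt19, each at least 2-fold higher, are direct neighbours on the array's map, with probes 10869 and 9052 bases apart. Many of the hair keratins between Krt23 and Krt13 were dim, such as Krt31 with 311 at E18.5 and 130 at E14.5.

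**Figure D3:**
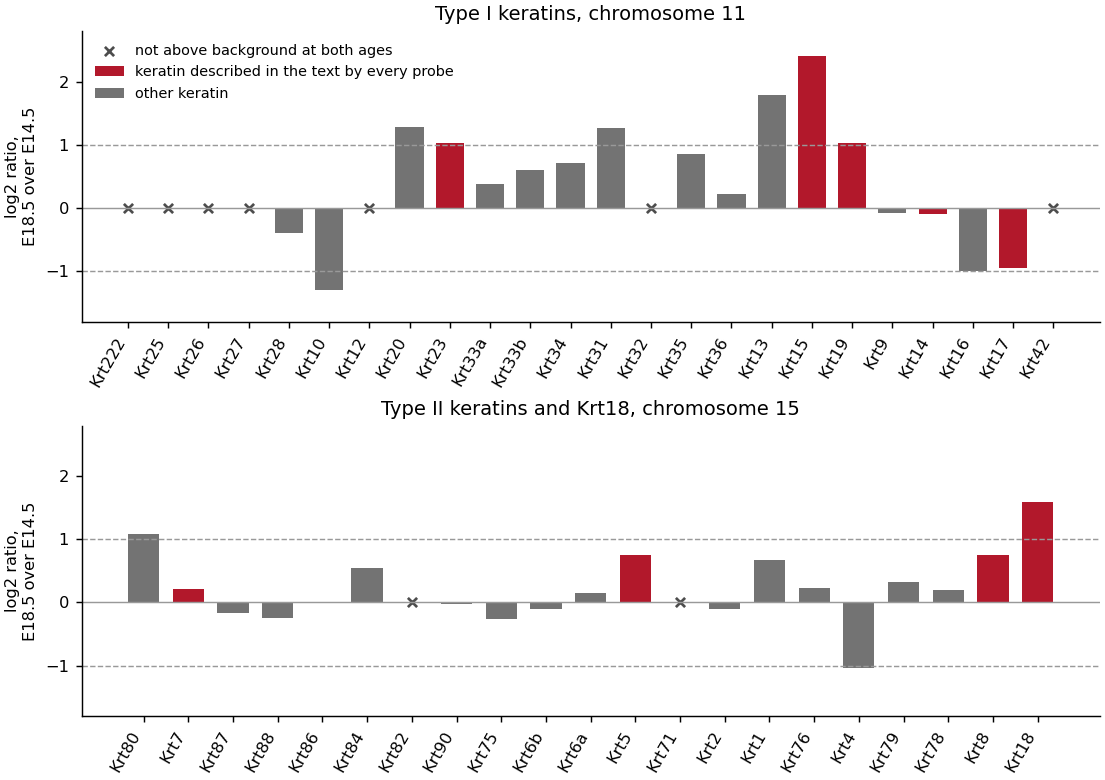
Log2 ratio of E18.5 over E14.5 of each keratin in its order along chromosomes 11 and 15, evenly spaced and not to distance, 1 array; red bars are the 9 keratins followed here, and crosses were not well above background at both ages. The bars from Krt20 to Krt19 point up and those from Krt9 to Krt17 point down, by at most 2-fold or close to it.

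Other genes of basal cells went both ways too. Of 24 such genes, 7 were called higher (29.2%), 3 lower (12.5%) and 14 neither, beside 17.3% and 10.1% of all genes. Their median log2 ratio was 0.22, against 0.06 over all genes. More calls on the higher side is also the tilt of the array, where 63.2% of all calls were higher. By the scanner software 6 of the 24 were higher and 5 lower. Cd44 (2.11), Icam1 (1.15) and Sfn (-1.02), named after their values were seen, were past 2-fold by 1 probe each. Other probes gave -0.04 and -0.01 for Cd44, 0.23 for Icam1, and 0.19 and 0.63 for Sfn. Il33, a cytokine stored in the nucleus, had 2403 at E18.5 and 134 at E14.5, a log2 ratio of 4.17. Itgb4, the integrin subunit that anchors basal keratins at hemidesmosomes, had 32530 at E18.5 and 5832 at E14.5, a log2 ratio of 2.48, with 2.58 and 1.02 by its other probes. F3, the tissue factor of coagulation, had a log2 ratio of 2.30. Dapl1, found in early differentiating epithelium, had 391 at E18.5 and 2783 at E14.5, a log2 ratio of -2.83. Ngfr and Pdpn, surface markers of airway basal cells named here after their values were seen, had log2 ratios of -0.64 and -0.71, within 2-fold. Their other probes gave 0.01 and -0.49, and by the scanner software Pdpn had -1.01, just past 2-fold. Of the 24 genes, 14 had log2 ratios above 0 and 10 below.

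Genes known from work in skin and other epithelia to be regulated by Trp63 were called at shares near those of all genes (17.3% higher and 10.1% lower). Of 22 measured, 4 were called higher, 2 lower and 16 neither, with a median log2 ratio of 0.31, and 11 of the 22 also stand in the basal cell list. Itgb4 (2.48), Col17a1 (1.88, and 0.59 by its other probe), a collagen of hemidesmosomes, and Cdkn1a (1.80), a cell cycle inhibitor, were higher. Fras1, a basement membrane protein, had 1735 at E18.5 and 7829 at E14.5, a log2 ratio of -2.17. Of the relatives of Trp63, Trp73 had 7210 at E18.5 and 3907 at E14.5, a log2 ratio of 0.88, within 2-fold. Trp53 had 0.18 by the probe used and -1.15, past 2-fold, by its other probe, so no direction is given for it.

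Desmosomes are the junctions onto which keratin filaments are fastened. Of 19 measured genes listed for their proteins and for keratin linkers, 2 were called higher (10.5%), 0 lower and 17 neither. The list also takes in Krtcap2 and Krtcap3, keratinocyte-associated by name alone, with log2 ratios of -0.50 and 0.59. Among all genes, 17.3% were higher and 10.1% lower. Log2 ratios were above 0 for 15 of the 19 and for 9375 of all 17244 genes, with medians of 0.78 and 0.06. With the median over probes these medians were 0.44 and 0.05. Ppl, a plakin that links keratins to the cell border, had 12794 at E18.5 and 5933 at E14.5, a log2 ratio of 1.11, and 0.17 by its other probe. Fbf1 (1.03), a keratin-binding protein, and Eppk1 and Dsc2 (0.99 each) followed, and the other Dsc2 probes gave 0.69 and 0.05. Dsg1a, Dsg3, Dsc1 and Dsc3, the desmosomal cadherins typical of stratified epithelia and named after their values were seen, were not well above background at either age. Among the genes of squamous and suprabasal cells, which include Krt4, Krt10, Krt13 and Krt16, 26 were measured, 5 were higher and 3 lower, with a median of 0.17. The galectin gene Lgals3 led them with 11498 at E18.5 and 773 at E14.5, a log2 ratio of 3.89, and Ecm1, a matrix protein gene, had 1.21, with -0.03 by its other probe.

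Of 16 measured genes for other intermediate filaments, 2 were called higher and 5 lower, beside 17.3% and 10.1% of all genes. Their median log2 ratio was -0.21, with 7 above 0 and 9 below, but -0.04 with median centring, with 8 on either side. The nuclear lamin gene Lmnb1 had 4801 at E18.5 and 77769 at E14.5, a log2 ratio of -4.02, and Lmnb2 had -1.34, with -0.97 by its other probe. Nes, the nestin of progenitor cells, and Des, the desmin of muscle, had -1.57 and -1.28. Vim, the vimentin of mesenchymal cells, was named after its value was seen and had 40866 at E18.5 and 47115 at E14.5, a log2 ratio of -0.21.

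**Figure D4:**
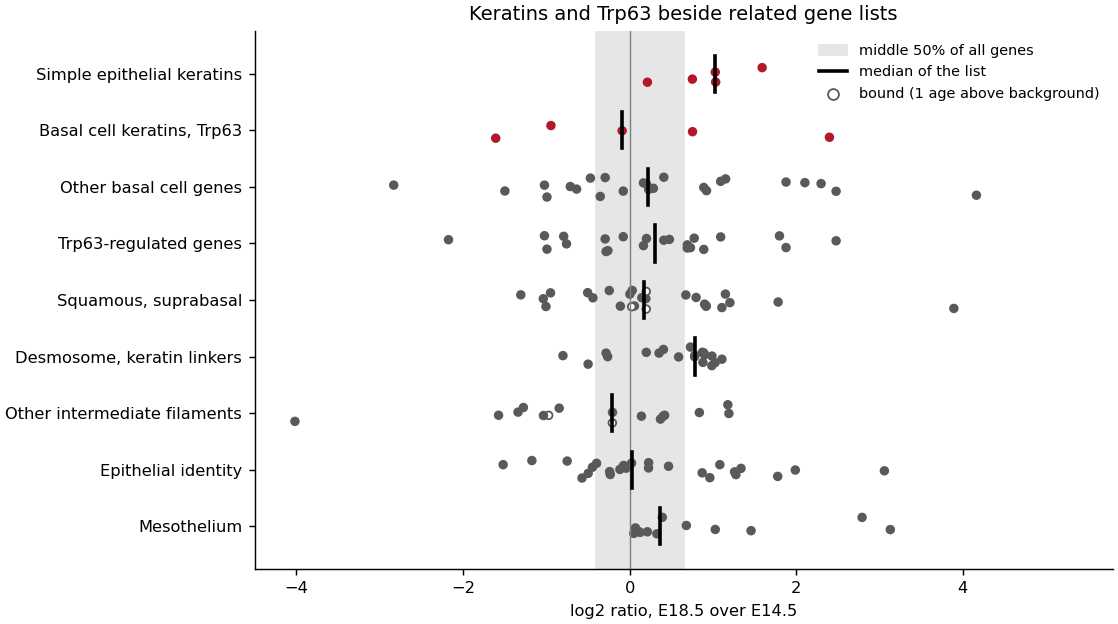
Log2 ratio of E18.5 over E14.5 of each measured gene in 9 lists, 1 array; red points in the upper 2 rows are the 10 genes followed here, open points are bounds, black bars are list medians and the grey band holds the middle 50% of all genes. The simple keratins have a median of 1.03, the basal keratins with Trp63 spread on both sides of 0 around a median of -0.09, and Krt7, Krt19 and other genes also stand in more than 1 list.

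The 25 general epithelial genes listed were all well above background at both ages, with a median log2 ratio of 0.02. Their detection does not measure how pure the samples were. Of these, 7 were called higher, among them Elf5 (1.99) and Cd24a (1.78), and 2 lower, among them Cldn18 (-1.52). Some markers of other cell types moved with age as well. Of 12 measured mesothelial genes, 4 were called higher (Krt19 among them), 0 lower and 8 neither. Their median log2 ratio was 0.36, and 17.3% of all genes were called higher. Without Krt7 and Krt19, the mesothelial genes summed to an intensity of 64728 at E18.5 and 18064 at E14.5. Msln alone had 43592 at E18.5 and 4975 at E14.5. The largest log2 ratios were those of Msln, Upk1b and Calb2, with 3.13, 2.79 and 1.46. The defining mesothelial genes Upk3b, Wt1 and Bnc1 were named after their values were seen: Upk3b and Wt1 were close to background at both ages, with 112 and 138 at E18.5 and 102 and 128 at E14.5, and Bnc1 was not well above it at either. Of the listed genes, 12 of 14 leukocyte and 6 of 13 endothelial genes were higher, with sums of 183874 and 139799 at E18.5 and 10671 and 34525 at E14.5. Single genes weigh heavily in these sums: without Lyz2, which alveolar type II cells also make, the leukocyte sum was 36959 at E18.5 and 8902 at E14.5, and without Kdr the endothelial sum was 68130 at E18.5 and 30434 at E14.5.

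Of genes listed for epithelial cell types, 9 of 10 club cell, 11 of 11 ciliated cell and 8 of 10 alveolar type II genes were higher. Among all genes, 17.3% were called higher and 10.1% lower. All 15 of 15 cell cycle genes were lower, which a bulk sample cannot place in a cell type. Of the alveolar type I genes 5 of 10 were higher and 1 lower, and of the mesenchymal genes 2 of 18 were higher and 6 lower. All 18 mesenchymal genes were well above background at both ages. They summed to an intensity of 539350 at E18.5 and 606353 at E14.5. The 25 general epithelial genes summed to 602394 at E18.5 and 389578 at E14.5. The part of any of these in the keratin and Trp63 ratios was not tested.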

How the data were processed

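Amplified, dye-labelled RNA of laser-dissected airway epithelium was measured at E18.5 (Cy5) and E14.5 (Cy3) on 1 two-colour array, with 1 sample per age. Groups come from the sample titles and dyes from the labels. The spot intensity and the local background intensity in each channel are the authors' deposited scanner output, linear and not background-subtracted, per the file headers. The same deposited output holds a log10 ratio of Cy5 to Cy3, made once background was subtracted and the dyes were normalized, per the file headers. The software was Feature Extraction, with the version number 9.5.3.1 taken from the submitters' processing notes. Both samples came with the same scanner output byte for byte, so it was read once. The deposited value table held the processed intensity of each sample's own channel times 0.339, with a floor of 15, medians of 130.2 at E18.5 and 129.1 at E14.5, and no centring. No source used here says where that constant comes from.

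Background was corrected with normexp (offset 50) and log2 ratios were normalized with limma 3.58.1 (R 4.3.3) by a loess curve of span 0.3 and 4 iterations. The remaining steps used Python 3.11.15, numpy 2.4.6 and pandas 2.3.3, with plots by matplotlib 3.10.9. Of 45018 spots, 1639 controls and 160 outlier spots were left out, which left 41170 probes, 33099 of them named. The code was checked on simulated data. The offset pulls ratios of dim probes towards 0. Median background-subtracted intensity was 281.5 at E18.5 and 208.6 at E14.5, and 153 negative control spots averaged -3.4 ± 3.72 at E18.5 and -1.86 ± 3.37 at E14.5 (SD over spots). The number of arrays limits the precision.

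A gene was represented by its brightest probe (by mean log2 intensity over both ages) that was well above background at 1 age or both. Where only 1 age was well above background, a bound was used. Named were the 10 genes by every probe, the 5 largest and 5 smallest ratios of the other keratins with any bound of 2-fold or more, and the 4 largest absolute ratios of each list plotted and of the p53 family; genes outside this rule are marked in the text. A gene that the rule names in the epithelial list is not reported here. For the club, ciliated, alveolar and cell cycle lists, counts alone are given, and for the mesenchymal list counts and summed intensities. For the leukocyte and endothelial lists, counts and summed intensities are given, and the gene that weighs most in each sum is named. The genes and the lists were chosen with earlier results of these data known. With 2 samples, no gene is called alike in pattern. A planned placing of the probes in the proteins was not run, since no protein or transcript sequences were used here. Alternatives were the scanner software's ratio, the value table, median centring, offset 0, no background correction, the median over probes, no filter on dim probes, outlier spots kept and, chosen after seeing the data, the other probes of Krt7, Krt8 and Trp63 and the leukocyte and endothelial sums without Lyz2 and Kdr.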

Additional observations from a re-analysis of the deposited data

How the results depend on the processing

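Krt15, Krt18 and Trp63 kept their 2-fold call under all 8 other ways of processing, which reuse the same spots and in part repeat each other. Trp63 came closest to the limit, at -1.04 with the median over probes. Of the 10 genes, 8 kept their sign; Krt7 had -0.11 with the median over probes and Krt14 had 0.01 with median centring. With the scanner software's ratio and with the authors' value table, the genes called higher numbered 2 and those called lower 2, in place of 4 and 1; Krt19 (0.98) and Krt23 (0.88) left the higher side and Krt17 (-1.21) joined the lower one. Krt8 was past 2-fold with median centring (1.24), with the median over probes (1.32) and by its second probe (1.88). Of the other keratins, 7 in place of 4 were higher with the scanner software's ratio, and 1 in place of 3 was lower with median centring and with no background correction. The counts of the gene lists moved more: of the desmosome list, 6 genes were higher with median centring and 1 with the scanner software's ratio, and of the other intermediate filament genes 8 were lower with that ratio, a median log2 ratio of -0.70, against -0.04 with median centring and -0.10 (-0.095) with no background correction. The median of the desmosome list was 0.44 with the median over probes. The causes were not tested. No paired analysis was possible because each age has 1 sample, and for the same reason no replicate could be left out. The signal limits 2 Trp63 probes: 1 was well above background at neither age and gives no ratio, and 1 at E14.5 alone and gives a bound. Dye effects cannot be told apart from age.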
